A study of Mus musculus with 6 samples.

Results

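Podocytes are the epithelial cells that wrap the capillaries of the glomerulus, the filter at the head of each nephron. Their interlocking foot processes are joined by the slit diaphragm, a junction built around nephrin that is tied to an actin cytoskeleton inside the cell and to a basement membrane beneath it. Loss of slit diaphragm or cytoskeletal proteins, by inherited mutation or injury, lets protein leak into the urine. Here 30 podocyte genes were followed, chosen by symbol from a list of slit diaphragm, surface, actin, nuclear and secreted products of this cell. All 30 were found among the 18849 genes of the deposited table.

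The 6 libraries hold whole-kidney messenger RNA of C57BL/6 males aged 8 weeks, after 14 days of unilateral ureteral obstruction (UUO), in which a tied ureter injures the kidney it drains. The 3 knockout libraries (c-AblEpi-cKO, genotype label c-Abl knockdown) came from mice with loxP sites in both c-Abl (Abl1) alleles and a Ksp-Cre transgene. The 3 floxed libraries (c-Ablflox/flox in the design text, genotype label WT) came from mice with the loxP sites, for which no Cre is named. Ksp-Cre is driven by the kidney-specific cadherin promoter, active in tubule epithelium, so the podocyte is not the cell the deletion was aimed at. All animals were obstructed, and unobstructed kidneys were not analysed here. Since no label ties a library to its own mouse, the spread behind the p-values is that between libraries and may be technical.

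Values are FPKM, fragments scaled by gene length and by the mapped total of the library. The spacing of low values implied about 16050000 to 17950000 fragments per library. The targeted gene Abl1 read 10.46, 14.45 and 12.91 FPKM in knockout replicates 1, 2 and 3, against 18.16, 15.93 and 17.33 FPKM in floxed replicates 1, 2 and 3, with no overlap (limma adjusted p = 0.144, exact two-sided permutation p = 0.1, the smallest that 3 against 3 allows). Cdh16, the gene whose promoter drives Ksp-Cre, averaged 321 ± 61.0 FPKM in knockout and 216 ± 17.3 FPKM in floxed libraries (SD, n = 3 each). Knockout replicate 3 stood apart from the other knockout libraries: stromal fibroblast genes had a median of -1.79, -1.83 and -0.79 in knockout replicates 1, 2 and 3 relative to the floxed mean on the log2(FPKM + 1) scale. For proximal tubule genes the median in those libraries was 2.18, 1.92 and 0.39.

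The podocyte was present in every library by its defining genes. No member was listed at 0, and nephrin, podocalyxin, synaptopodin and Wt1 were all above 3 FPKM throughout. Averaged over 3 libraries, 29 of the 30 members were lower in knockout than in floxed kidneys, Arhgap24 being the exception. Of all 13390 genes tested, 8710 also had a lower mean in knockout. Of the 27 members tested, 26 had a fold change below 0, as did 8761 of all tested genes. Median-ratio scaling gave 22 such members and quantile scaling 23. The median ratio of knockout to floxed mean FPKM was 0.642 over all 30 members and 0.912 over the 13390 genes tested. In whole tissue, fewer podocytes, less RNA per podocyte and a larger share of RNA from other cells cannot be told apart. No single member passed the test over all genes: 0 of the 27 members tested had a limma adjusted p under 0.05, where 9 of all tested genes, 0.0672%, did. At an unadjusted limma p under 0.05, 11 members were lower and 0 higher, against 16.3% of all tested genes lower and 8.38% higher. In 9 of the 27 tested members all knockout libraries lay below all floxed libraries, against 21.7% of all tested genes, and in 0 members all lay above, against 10.0%. Crb2, Trpc6 and Lmx1b were too low to be tested (under 1 FPKM in more than 3 of the 6 libraries).

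**Figure D1:**
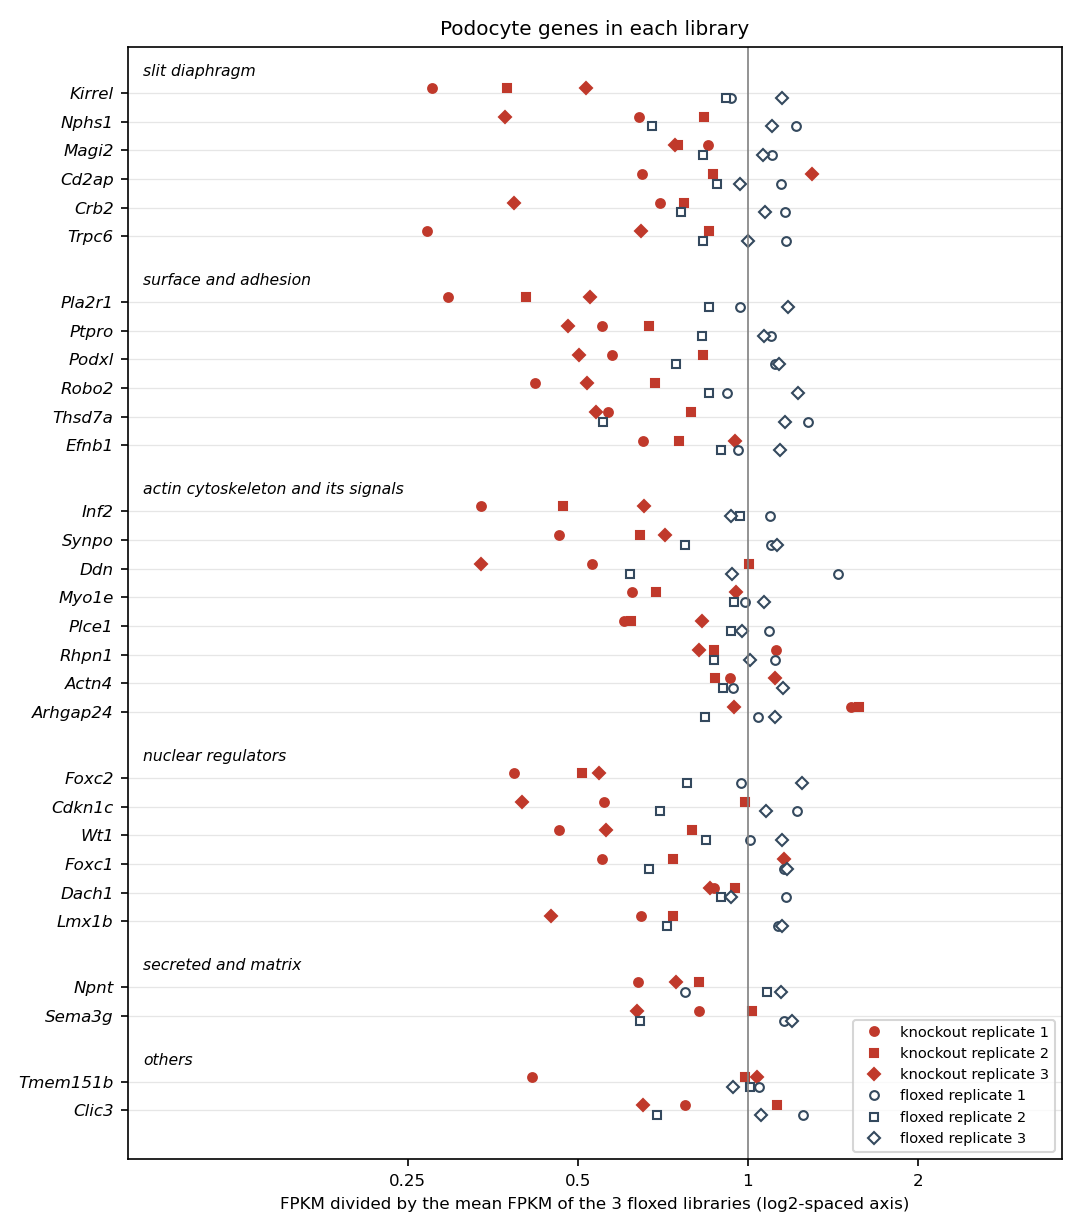
FPKM of each of the 30 podocyte genes in each library, divided by the mean of the 3 floxed libraries on a log2-spaced axis; filled red symbols are knockout and open dark symbols floxed libraries (circle, square and diamond are replicates 1, 2 and 3). Kirrel, Inf2 and Pla2r1 separate the groups with knockout replicate 1 lowest, whereas Nphs1, Crb2, Cdkn1c and Ddn have knockout replicate 3 lowest and overlap between the groups.

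The slit diaphragm genes showed 2 different patterns over the libraries. Nephrin (Nphs1, Entrez 54631), the immunoglobulin-family protein that bridges neighbouring foot processes, read 5.51, 7.19 and 3.19 FPKM in knockout replicates 1, 2 and 3, against 10.45, 5.82 and 9.49 FPKM in floxed replicates 1, 2 and 3. The groups overlapped, because floxed replicate 2 lay between knockout replicates 1 and 2, and the lowest library of all was knockout replicate 3. The mean was 38.3% lower in knockout, with a log2 fold change of -0.62 (SE 0.299, 95% interval -1.33 to 0.08, limma adjusted p = 0.242). Without knockout replicate 3 the Nphs1 log2 fold change was -0.36. Kirrel (Entrez 170643) encodes Neph1, the partner that nephrin binds across the slit. It read 2.74, 3.73 and 5.14 FPKM in knockout replicates 1, 2 and 3, against 9.29, 9.1 and 11.42 FPKM in floxed replicates 1, 2 and 3. The highest knockout library was well below the lowest floxed library, and here knockout replicate 3 was the nearest to the floxed group. Kirrel was the member with the largest difference, 61.1% lower in mean FPKM (log2 fold change -1.19, SE 0.205, limma adjusted p = 0.0547).

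Crb2, a Crumbs polarity protein needed at the slit, was low but followed nephrin: it read 0.69, 0.76 and 0.38 FPKM in knockout replicates 1, 2 and 3, against 1.15, 0.75 and 1.06 FPKM in floxed replicates 1, 2 and 3. The scaffold Magi2 averaged 1.74 ± 0.133 FPKM in knockout and 2.22 ± 0.326 FPKM in floxed libraries (SD, n = 3 each), and its groups overlapped. Trpc6, a calcium-permeable channel, ranged from 0.13 to 0.41 FPKM in knockout and from 0.4 to 0.56 FPKM in floxed libraries. Its lowest value, 0.13 FPKM in knockout replicate 1, stands for about 7.08 fragments at the estimated depth, so counting error is large there. Cd2ap, the adaptor that ties the slit diaphragm to actin and that many other cells make, averaged 57.7 ± 20.3 FPKM in knockout and 61.5 ± 8.26 FPKM in floxed libraries. Its highest value of all, 79.87 FPKM, was in knockout replicate 3, the library with the least nephrin, and the sign of its fold change turned with median-ratio scaling.

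The stretches of 250 bases before the annotated start of Nphs1, Crb2 and Kirrel are shown. Between libraries Crb2 followed nephrin (Nphs1) and Kirrel did not, and the choice of genes rests on those values. The sequences are from RefSeq, build GRCm38.p6, whereas the FPKM values rest on mm9, per the submitters' processing notes. Nphs1 lies at chr7:30459808-30460057 on the plus strand, Crb2 at chr2:37775999-37776248 on the plus strand and Kirrel at chr3:87174538-87174787 on the minus strand, each printed 5′ to 3′ in the direction of the gene. Capitals mark a match to the motifs searched, found in the Nphs1 stretch:
Nphs1: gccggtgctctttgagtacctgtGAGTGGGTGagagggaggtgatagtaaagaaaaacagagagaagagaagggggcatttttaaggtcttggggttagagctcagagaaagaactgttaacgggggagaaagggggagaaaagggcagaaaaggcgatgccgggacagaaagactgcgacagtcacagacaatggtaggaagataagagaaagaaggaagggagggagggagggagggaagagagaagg
Crb2: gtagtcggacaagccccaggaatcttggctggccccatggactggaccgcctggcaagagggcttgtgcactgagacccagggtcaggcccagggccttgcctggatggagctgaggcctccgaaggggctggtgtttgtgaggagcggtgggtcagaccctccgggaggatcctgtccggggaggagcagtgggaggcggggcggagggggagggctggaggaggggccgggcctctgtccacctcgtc
Kirrel: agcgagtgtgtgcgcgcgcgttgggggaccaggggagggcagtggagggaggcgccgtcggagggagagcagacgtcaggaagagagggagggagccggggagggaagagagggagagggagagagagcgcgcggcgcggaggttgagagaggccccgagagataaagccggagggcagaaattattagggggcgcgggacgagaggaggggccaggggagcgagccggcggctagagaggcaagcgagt
Both strands were searched for letters based on the sites of 4 podocyte transcription factors, GNGTGGGNG for WT1, TAATTA for LMX1B, TGTTTAC for FOXC1 and FOXC2, and CAGCTG for TCF21. Of the 30 members, 22 had a sequence in the table. The WT1 letters stood before 7 of them, Nphs1 among them, and in 12.7% of all 32851 stretches of that length. TAATTA stood before 1 member (4.84% of all), CAGCTG before 5 (13.0% of all) and TGTTTAC before 0 (3.17% of all). Some of the 22 members had more than 1 annotated start. A member counts if any of its stretches matched, whereas the shares count stretches, so these are not like for like. A match describes letters only.

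Among the surface and adhesion genes, 4 of 6 were lower at an unadjusted limma p under 0.05, beside 16.3% of all tested genes. Podocalyxin (Podxl, Entrez 27205), the sialomucin whose charge keeps foot processes apart, read 27.96, 40.47 and 24.44 FPKM in knockout replicates 1, 2 and 3, against 54.34, 36.34 and 55.22 FPKM in floxed replicates 1, 2 and 3. As with nephrin, knockout replicate 3 was lowest and knockout replicate 2 lay above floxed replicate 2 (36.3% lower in mean, log2 fold change -0.64, SE 0.237, limma adjusted p = 0.165). Ptpro (Entrez 19277), a receptor tyrosine phosphatase of the foot process surface also called GLEPP1, read 4.37, 5.29 and 3.8 FPKM in knockout replicates 1, 2 and 3. In floxed replicates 1, 2 and 3 it read 8.72, 6.57 and 8.46 FPKM. Within each group it kept the library order of nephrin, yet its groups did not overlap (43.3% lower, log2 fold change -0.70, SE 0.166, limma adjusted p = 0.0839). Pla2r1 (Entrez 18779), the phospholipase A2 receptor known in humans as an autoantigen of membranous nephropathy, had the order of Kirrel instead. It read 1.14, 1.57 and 2.03 FPKM in knockout replicates 1, 2 and 3, against 3.75, 3.3 and 4.56 FPKM in floxed replicates 1, 2 and 3, with no overlap (59.2% lower, log2 fold change -0.92, SE 0.187, limma adjusted p = 0.0651).

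Thsd7a, the other membranous nephropathy antigen of the list, averaged 1.55 ± 0.345 FPKM in knockout and 2.45 ± 0.957 FPKM in floxed libraries (SD, n = 3 each). Its floxed replicate 2, at 1.36 FPKM, was as low as the knockout libraries. The Slit receptor Robo2 averaged 1.42 ± 0.354 FPKM in knockout and 2.62 ± 0.524 FPKM in floxed libraries, with no overlap (limma adjusted p = 0.127). Ephrin-B1 (Efnb1), a ligand of Eph receptors found at the slit, averaged 14.3 ± 2.74 FPKM in knockout and 18.2 ± 2.32 FPKM in floxed libraries. Its knockout replicate 3, at 17.25 FPKM, lay within the floxed range.

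**Figure D2:**
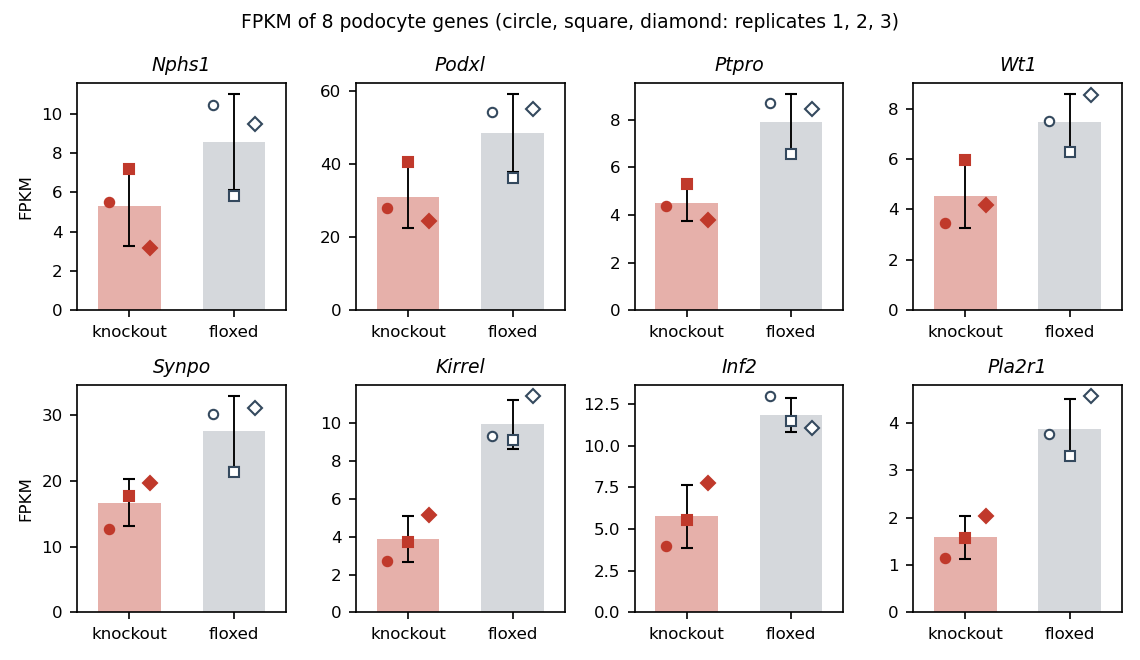
FPKM of 8 podocyte genes, knockout left and floxed right; bars are means, error bars 1 SD over 3 libraries, symbols the libraries. In Nphs1 and Podxl knockout replicate 2 lies above floxed replicate 2, whereas in Ptpro, Wt1, Synpo, Kirrel, Inf2 and Pla2r1 every knockout library lies below every floxed library.

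Of the 8 genes of the actin cytoskeleton and its signals, 4 were lower at an unadjusted limma p under 0.05, beside 16.3% of all tested genes, and the log2 fold changes ran from -0.96 for Inf2 to 0.39 for Arhgap24. Synaptopodin (Synpo, Entrez 104027), which organises actin in foot processes, read 12.76, 17.77 and 19.62 FPKM in knockout replicates 1, 2 and 3, against 30.22, 21.34 and 31.06 FPKM in floxed replicates 1, 2 and 3. All knockout libraries were below all floxed libraries, with knockout replicate 1 lowest (39.3% lower, log2 fold change -0.69, SE 0.209, limma adjusted p = 0.119). The formin Inf2 (Entrez 70435), an actin filament regulator mutated in human focal segmental glomerulosclerosis, read 3.98, 5.56 and 7.74 FPKM in knockout replicates 1, 2 and 3, against 12.97, 11.47 and 11.05 FPKM in floxed replicates 1, 2 and 3. It did not overlap and was 51.3% lower in mean (log2 fold change -0.96, SE 0.213, limma adjusted p = 0.0755). Plce1, a phospholipase C, averaged 2.04 ± 0.373 FPKM in knockout and 2.98 ± 0.243 FPKM in floxed libraries, with no overlap. The class I myosin Myo1e averaged 15.9 ± 3.68 FPKM in knockout and 21.1 ± 1.33 FPKM in floxed libraries, and its knockout replicate 3, at 20.08 FPKM, reached the floxed range.

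Dendrin (Ddn), a partner of synaptopodin and Cd2ap, varied most within the groups: 4, 7.61 and 2.55 FPKM in knockout replicates 1, 2 and 3, against 10.9, 4.68 and 7.1 FPKM in floxed replicates 1, 2 and 3. Within each group its libraries had the order of nephrin. Alpha-actinin-4 (Actn4), an actin crosslinker of many cell types, averaged 88.9 ± 11.5 FPKM in knockout and 91.3 ± 12.3 FPKM in floxed libraries, and rhophilin-1 (Rhpn1) 9.17 ± 1.59 and 9.78 ± 1.22 FPKM. The log2 fold changes of those genes were -0.04 (95% interval -0.39 to 0.32) and -0.09 (95% interval -0.47 to 0.29), and both changed sign under median-ratio scaling. Arhgap24, a GTPase-activating protein for Rac, was the member higher in knockout, at 58.1, 60.17 and 36.13 FPKM in knockout replicates 1, 2 and 3, against 39.82, 32.07 and 42.77 FPKM in floxed replicates 1, 2 and 3. Knockout replicates 1 and 2 exceeded all floxed libraries and knockout replicate 3 lay among them (log2 fold change 0.39, SE 0.220, limma adjusted p = 0.298).

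Of the 6 nuclear regulators 5 were tested, and 2 of these, Wt1 and Foxc2, were lower at an unadjusted limma p under 0.05, beside 16.3% of all tested genes. Wt1 (Entrez 22431), the zinc finger factor that maintains podocyte identity, read 3.46, 5.95 and 4.18 FPKM in knockout replicates 1, 2 and 3, against 7.52, 6.3 and 8.56 FPKM in floxed replicates 1, 2 and 3. The groups did not overlap, though knockout replicate 2 came near floxed replicate 2 (39.3% lower, log2 fold change -0.63, SE 0.201, limma adjusted p = 0.131). The forkhead factor Foxc2 (Entrez 14234) read 2.02, 2.66 and 2.85 FPKM in knockout replicates 1, 2 and 3, against 5.1, 4.09 and 6.52 FPKM in floxed replicates 1, 2 and 3. It was 52.1% lower with no overlap (log2 fold change -0.82, SE 0.190, limma adjusted p = 0.0811). Its relative Foxc1 averaged 5.53 ± 2.11 FPKM in knockout and 6.77 ± 1.95 FPKM in floxed libraries, and its knockout replicate 3, at 7.85 FPKM, lay near the upper floxed values. The LIM homeodomain factor Lmx1b read 0.72, 0.82 and 0.5 FPKM in knockout replicates 1, 2 and 3, against 1.26, 0.8 and 1.28 FPKM in floxed replicates 1, 2 and 3. Cdkn1c, the cell cycle inhibitor p57 of mature podocytes, read 13.4, 23.82 and 9.59 FPKM in knockout replicates 1, 2 and 3. In floxed replicates 1, 2 and 3 it read 29.48, 16.88 and 25.98 FPKM. In Lmx1b and Cdkn1c, as in nephrin, knockout replicate 3 was lowest and floxed replicate 2 the lowest floxed library. Dach1 averaged 5.26 ± 0.291 FPKM in knockout and 5.89 ± 0.865 FPKM in floxed libraries, with a fold change that turned positive under median-ratio or quantile scaling.

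The groups overlapped in the remaining 4 members. Nephronectin (Npnt, Entrez 114249), an integrin ligand laid down in basement membrane, read 39.94, 51.36 and 46.6 FPKM in knockout replicates 1, 2 and 3, against 48.45, 67.72 and 71.51 FPKM in floxed replicates 1, 2 and 3 (log2 fold change -0.42, SE 0.180, limma adjusted p = 0.204). The secreted semaphorin Sema3g read 13.52, 16.79 and 10.51 FPKM in knockout replicates 1, 2 and 3, against 19.13, 10.65 and 19.77 FPKM in floxed replicates 1, 2 and 3 (limma adjusted p = 0.588). The chloride intracellular channel protein Clic3 read 7.47, 10.87 and 6.27 FPKM in knockout replicates 1, 2 and 3, against 12.07, 6.65 and 10.17 FPKM in floxed replicates 1, 2 and 3 (limma adjusted p = 0.631). In Sema3g and Clic3 the lowest library of each group was again knockout replicate 3 and floxed replicate 2. The membrane protein Tmem151b read 0.99, 2.36 and 2.48 FPKM in knockout replicates 1, 2 and 3, against 2.5, 2.41 and 2.25 FPKM in floxed replicates 1, 2 and 3 (limma adjusted p = 0.529). Its difference rested on knockout replicate 1, without which the log2 fold change was 0.01.

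**Figure D3:**
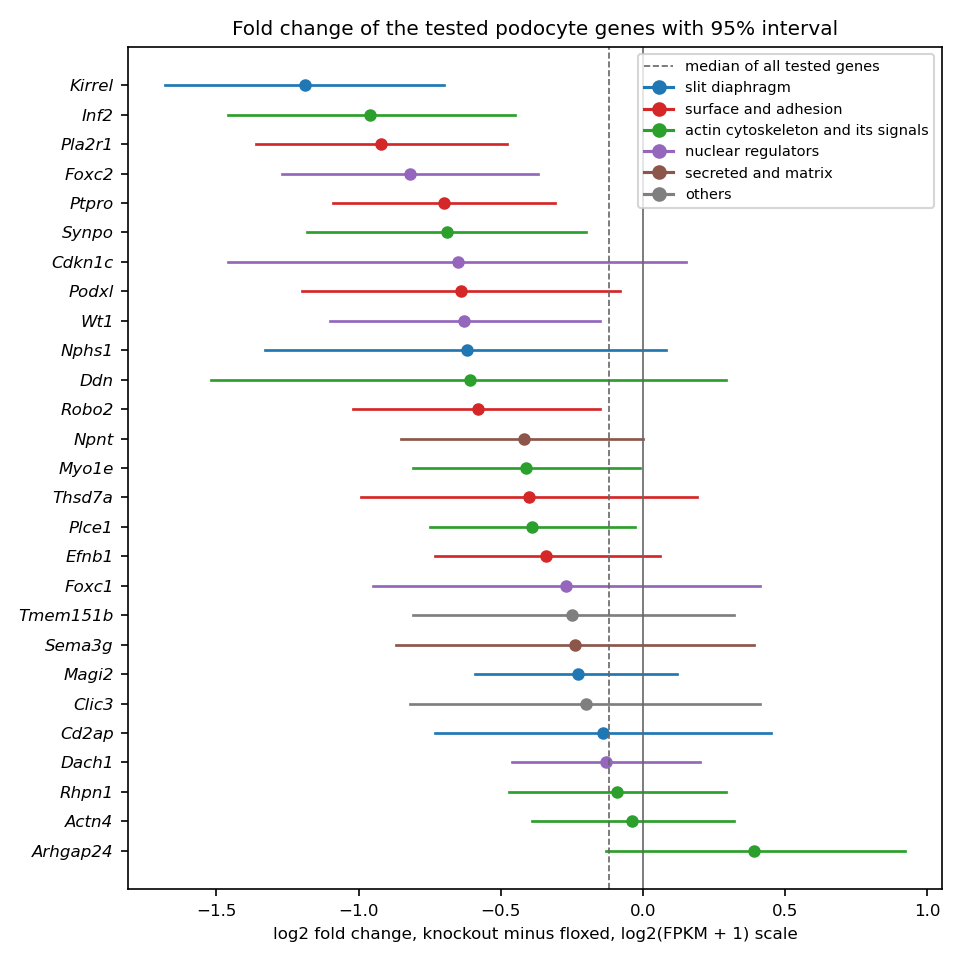
Log2 fold change (knockout minus floxed, log2(FPKM + 1) scale) of the 27 tested podocyte genes with its 95% interval, coloured by role; the dashed line is the median of all 13390 tested genes at -0.12. The values run from -1.19 for Kirrel to 0.39 for Arhgap24, and all but Arhgap24 lie below 0, as do 8761 of all tested genes.

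The members differed in which libraries were low. This division was noticed in the values and is a description. In 14 of the 30 members knockout replicate 3 was the lowest knockout library and floxed replicate 2 the lowest floxed library, a combination found in 8.04% of tested genes. Those 14 were Nphs1, Magi2, Crb2, Podxl, Ptpro, Thsd7a, Arhgap24, Ddn, Rhpn1, Lmx1b, Dach1, Cdkn1c, Sema3g and Clic3. In 15 members knockout replicate 1 was the lowest of all 6 libraries, as it was in 44.6% of tested genes. Knockout replicate 3 was the lowest of all 6 in 13 members and in 8.33% of tested genes. Floxed replicate 2 was the lowest floxed library in 27 of the 30 members and in 38.2% of tested genes.

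In several members the ratio to nephrin spanned only 1.22-fold to 1.62-fold over the libraries, while nephrin itself spanned 3.28-fold. Podxl stood at 5.07, 5.63 and 7.66 times the Nphs1 FPKM in knockout replicates 1, 2 and 3, and at 5.2, 6.24 and 5.82 times it in floxed replicates 1, 2 and 3. For Crb2, which was too low to be tested, the highest ratio was 1.22 times the lowest. Of the 13389 tested genes other than Nphs1, 0 had a narrower span. Untested genes outside the members were not ranked. The span was 1.36-fold for Cdkn1c, 1.37-fold for Lmx1b (also untested), 1.46-fold for Ddn, 1.51-fold for Podxl and 1.62-fold for Ptpro. The median span was 3.49-fold over the tested genes other than Nphs1. For each of these members, at most 11 tested genes other than Nphs1 and the member itself had a narrower span. In knockout replicate 3 Crb2 and Lmx1b stood for about 38.9 and 38.4 fragments at the estimated depth. Counting error is therefore large in their ratios, and their ranks are uncertain. Clic3 was 1.36, 1.51 and 1.97 times nephrin in knockout replicates 1, 2 and 3, and 1.16, 1.14 and 1.07 times nephrin in floxed replicates 1, 2 and 3. This ratio did not overlap, and neither did those of Sema3g and Arhgap24. A gene that falls less than nephrin has a higher ratio in knockout, and the share of all genes without overlap was not counted. Kirrel was 0.497, 0.519 and 1.61 times nephrin in knockout replicates 1, 2 and 3, and 0.889, 1.56 and 1.20 times nephrin in floxed replicates 1, 2 and 3. Its span of 3.24-fold was near the median of all genes. Spans of 3.01-fold to 4.33-fold were also seen for Inf2, Pla2r1, Plce1, Npnt, Myo1e, Efnb1, Foxc1, Actn4, Cd2ap, Trpc6 and Tmem151b.

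**Figure D4:**
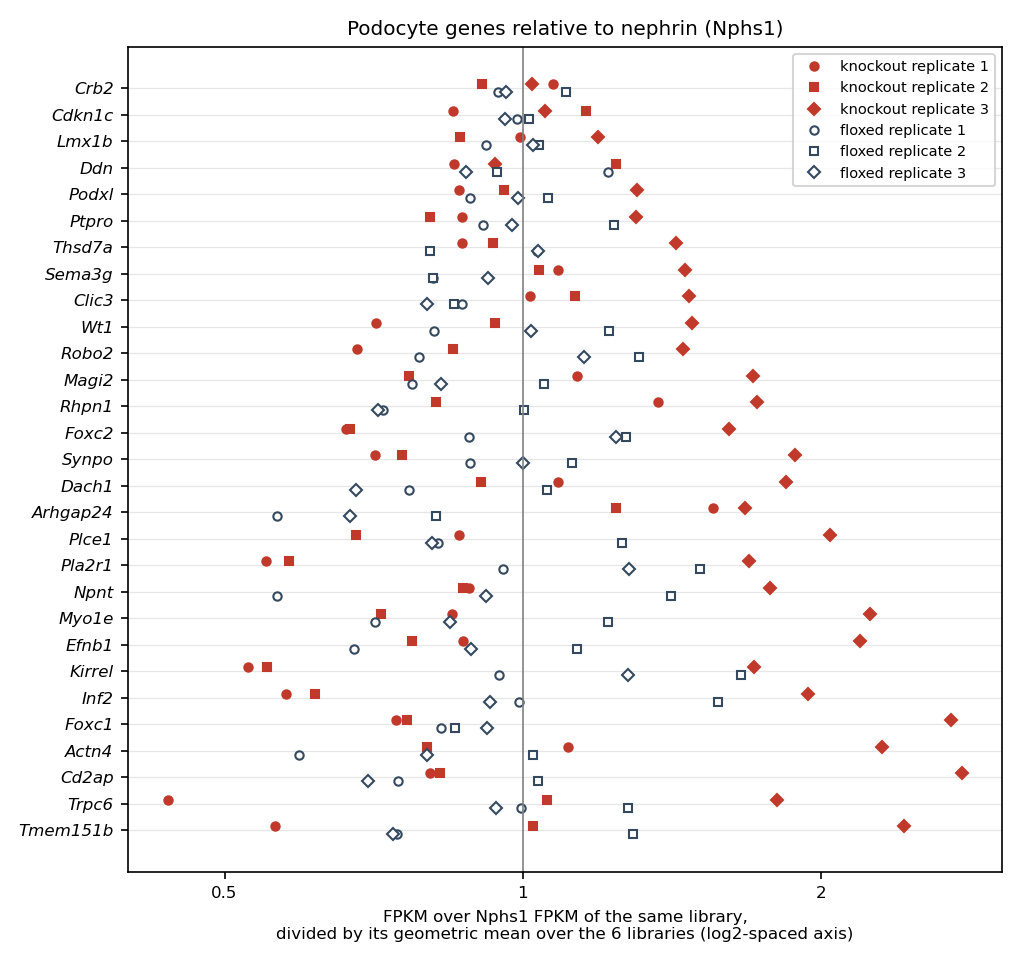
FPKM of each of the other 29 podocyte genes over the Nphs1 FPKM of the same library, divided by its geometric mean over the 6 libraries (log2-spaced axis), sorted by span. Crb2, Cdkn1c, Lmx1b, Ddn and Podxl at the top span 1.22-fold to 1.51-fold. Knockout replicate 3, the library with the lowest Nphs1, has the highest of the 6 ratios in Lmx1b, Podxl and every gene further down.

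The members were also sorted by where the kidney is held to make them, a judgement that was not measured in these libraries. This division overlaps only in part with that by library order. Of the 12 genes classed as made largely by podocytes in the adult kidney, 9 had knockout replicate 3 as their lowest library. The other 3, Wt1, Synpo and Plce1, had knockout replicate 1 lowest. Their ratio of knockout to floxed mean FPKM ran from 0.567 for Ptpro to 0.852 for Clic3 with a median of 0.621, and 9 of the 12 were at or below 0.65, as were 14.9% of all tested genes. Wt1 and Synpo stood at 0.607, Lmx1b at 0.611, Nphs1 at 0.617, Crb2 at 0.618, Ddn at 0.624, Thsd7a at 0.633 and Podxl at 0.637. Relative to the floxed mean, their median on the log2(FPKM + 1) scale was -0.51, -0.22 and -0.53 in knockout replicates 1, 2 and 3, and 0.14, -0.28 and 0.11 in floxed replicates 1, 2 and 3. Knockout replicate 2 and floxed replicate 2 lay side by side. Of the 18 genes classed as also made by other kidney cells, 4 had knockout replicate 3 lowest and 12 had knockout replicate 1 lowest. The difference between the classes was not tested and depends on how the genes were classed. Their ratios ran from 0.389 for Kirrel to 1.35 for Arhgap24 with a median of 0.769, and 7 of the 18, or 38.9%, were at or below 0.65. Their library median stood at -0.63, -0.23 and -0.22 in the knockout and 0.06, -0.15 and 0.18 in the floxed replicates 1, 2 and 3. The cut of 0.65 was not fixed in advance and lies just above Podxl at 0.637 and Cdkn1c at 0.647. The shares at or below it are therefore a description only.

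Without knockout replicate 3, 8 of the 27 tested members passed the limma test over all genes. The 7 lower ones were Kirrel, Inf2, Pla2r1, Foxc2, Synpo, Myo1e and Ptpro, where 15.4% of all tested genes were lower. The 1 higher was Arhgap24, where 9.02% of all tested genes were higher. Kirrel reached a log2 fold change of -1.37 (limma adjusted p = 0.00566), and its adjusted p ranged from there to 0.213 over the alternatives. Nphs1, Podxl and Wt1 did not pass in that fit either, with log2 fold changes of -0.36, -0.49 and -0.59. Knockout replicate 3 was nearest to the floxed libraries for stromal and proximal tubule genes, and in 14 members it was the lowest knockout library.

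Genes of other kidney cells are given beside the podocyte genes, and their part in the result was not tested. Each list is named for the cell it was meant to mark, but whole-kidney RNA does not show which cells made a gene. Their counts at an unadjusted limma p under 0.05 stand beside 16.3% of all tested genes lower and 8.38% higher. Of 12 genes listed for glomerular endothelium, 11 were tested, with 2 lower and 0 higher, near the share of all tested genes. They are not shown here to come from glomerular vessels alone. Emcn, an endothelial sialomucin, averaged 30.5 ± 5.93 FPKM in knockout and 52.1 ± 13.5 FPKM in floxed libraries (SD, n = 3 each, limma adjusted p = 0.130), and Ehd3, enriched in glomerular capillaries, 5.34 ± 0.739 and 8.35 ± 2.33 FPKM (limma adjusted p = 0.191). For endothelium the median stood at -0.57, -0.36 and -0.36 in the knockout and 0.17, -0.50 and 0.27 in the floxed replicates 1, 2 and 3, so floxed replicate 2 was low for endothelium as it was for podocytes. The summed FPKM of those 12 genes ranged from 252 to 393 in knockout and from 273 to 400 in floxed libraries, and Sost was listed at 0 in 5 of the 6. In knockout replicate 1, which had the sum of 393, Lpl and Fabp4 alone held 159.65 and 118.28 FPKM. Of the 11 endothelial genes tested, 10 had a fold change below 0, beside 8761 of all 13390 tested genes.

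The mesangial list, which overlaps the stroma in what it marks, had 7 of 10 genes lower. Serpine2, a protease inhibitor, averaged 24.3 ± 7.07 FPKM in knockout and 114 ± 36.3 FPKM in floxed libraries (limma adjusted p = 0.0547), and the growth factor Ptn 4.39 ± 0.701 and 18.9 ± 8.22 FPKM (limma adjusted p = 0.0547). The summed mesangial FPKM ranged from 156 to 265 in knockout and from 484 to 681 in floxed libraries. Of 12 stromal fibroblast genes 10 were lower at the unadjusted threshold, Dpt also after adjustment (2.55 ± 0.748 FPKM in knockout and 12.7 ± 1.71 FPKM in floxed libraries, limma adjusted p = 0.0446), with decorin (Dcn) at 30.8 ± 8.28 and 80.0 ± 1.08 FPKM. Their summed FPKM ranged from 106 to 353 in knockout and from 560 to 721 in floxed libraries. Among the knockout libraries replicate 3 was nearest to floxed in the fibroblast median, as in Kirrel, Inf2 and Pla2r1, whereas it was the farthest in nephrin. Another 10 genes were listed for parietal epithelium, the cells that line the capsule around the glomerulus, and are not shown here to come from those cells alone. Of these, 1 was lower (Ncam1, 2.90 ± 1.34 FPKM in knockout and 6.59 ± 1.21 FPKM in floxed libraries) and 1 higher (Wfdc15b, 90.6 ± 72.5 and 18.3 ± 2.59 FPKM). This was no more than the share of all tested genes for the lower and near it for the higher. Their summed FPKM ranged from 620 to 1130 in knockout and from 799 to 958 in floxed libraries. Of 14 proximal tubule genes 9 were higher, among them Slc4a4 (93.6 ± 11.7 FPKM in knockout and 49.8 ± 3.78 FPKM in floxed libraries) and Pck1 (746 ± 415 and 119 ± 13.2 FPKM). Their summed FPKM, led by a few abundant genes, ranged from 5100 to 43500 in knockout and from 5460 to 14400 in floxed libraries.

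**Figure D5:**
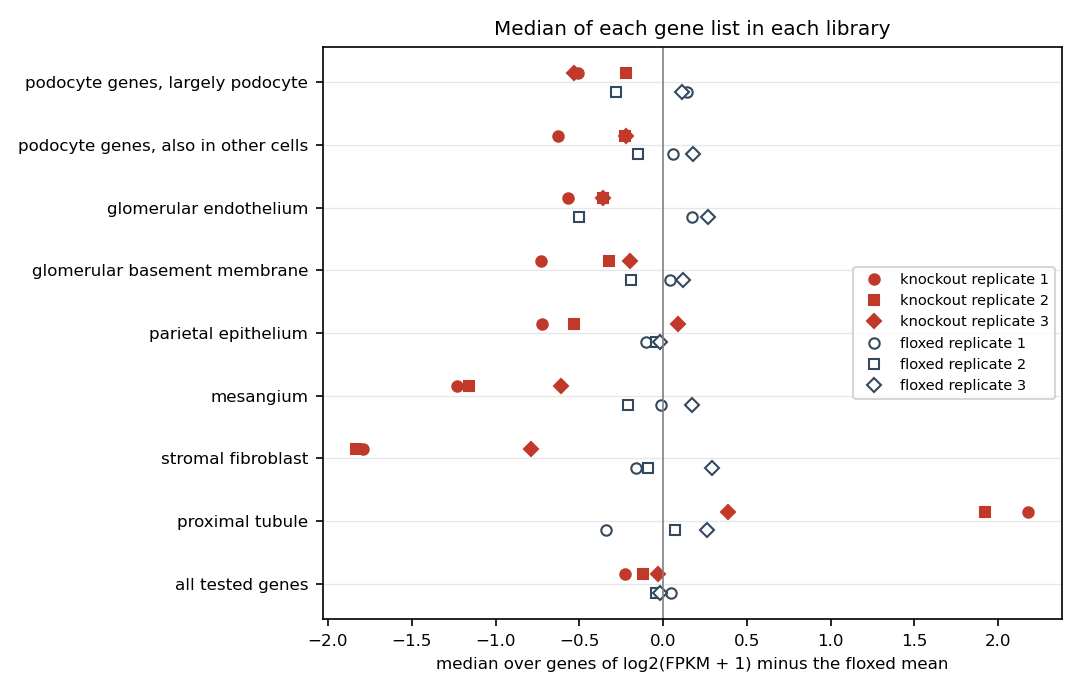
Median over the genes of each list of log2(FPKM + 1) minus the floxed mean, per library; filled red symbols are knockout and open dark symbols floxed libraries. In the largely podocyte list knockout replicates 1 and 3 lie at -0.51 and -0.53, whereas in the stromal fibroblast list knockout replicate 3 at -0.79 lies apart from replicates 1 and 2 at -1.79 and -1.83.

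Among 42 further genes of foot processes, their integrin anchorage and their actin control, 41 were tested, with 10 lower and 1 higher at an unadjusted limma p under 0.05 and a median log2 fold change of -0.35, against -0.12 for all tested genes, of which 16.3% were lower and 8.38% higher. Dlc1, a GTPase-activating protein, averaged 3.90 ± 0.535 FPKM in knockout and 7.84 ± 1.35 FPKM in floxed libraries (limma adjusted p = 0.0635), and the heparan sulfatase Sulf1 2.55 ± 1.66 and 9.54 ± 2.97 FPKM (limma adjusted p = 0.0740). Bmp7, a growth factor that tubules also make, was the higher one, at 12.3 ± 3.38 FPKM in knockout and 6.26 ± 0.632 FPKM in floxed libraries (limma adjusted p = 0.0931). Most of these genes are made by many kidney cells. Of 14 genes of the glomerular basement membrane, a list that also holds the member Npnt, 5 were lower and 0 higher at an unadjusted limma p under 0.05, beside the same shares of all tested genes. The linker nidogen Nid1 averaged 13.8 ± 7.19 FPKM in knockout and 28.5 ± 8.05 FPKM in floxed libraries (limma adjusted p = 0.131), and the proteoglycan perlecan (Hspg2) 7.36 ± 1.94 and 11.4 ± 1.48 FPKM (limma adjusted p = 0.139). None of these lists held a gene that passed after adjustment over all genes, apart from Dpt among the fibroblast genes.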

How the data were processed

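RNA was extracted with TRIzol and libraries followed an Illumina protocol, per the labels' protocols. The authors deposited 1 FPKM value per gene and library with 2 decimals, per the file headers. Their processing notes name build mm9. Which aligner, counter, annotation and strand setting they used is not given in the sources used here. Reads of overlapping genes therefore cannot be told apart, which touches Nphs1, Crb2, Ddn, Cdkn1c, Actn4, Pla2r1, Tmem151b and Magi2, whose exons overlap another gene in GENCODE M21. Because FPKM is a share of the mapped total, very abundant genes shift all others.

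Groups and replicate numbers came from the sample titles. No libraries held identical values. Of the Entrez identifiers, 18792 matched a RefSeq table, and 26 symbols turned into dates were restored. Depth was estimated from low values of genes with 1 RefSeq-linked GENCODE transcript, as the depth that brought them nearest to whole fragments. Of these values, 64.8% to 67.6% per library lay within 0.2 of a whole fragment. That share is raised by the choice of depth, and the share to be met without any fit was not counted. The depth is approximate. Intervals cover the spread between libraries only.

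The 13390 genes that reached 1 FPKM in 3 or more libraries, 27 members among them, were tested on log2(FPKM + 1). The model in limma 3.58.1 (R 4.3.3) held group alone, used a trended prior variance and gave two-sided p-values, adjusted by Benjamini-Hochberg and read at 0.05. This scale understates changes of low genes. The code was tested on simulated data. Python 3.11.15 with pandas 2.3.3, scipy 1.17.1 and matplotlib 3.10.9 did the rest. The members, role groups and other lists were chosen with earlier results of these data known. The division of the members by where the kidney makes them was not listed with them. The text gives in full Nphs1, Podxl, Synpo, Wt1 and the 2 members of smallest p per role group, and from each other list the 2 genes of smallest p. Crb2, Ddn, Arhgap24, Lmx1b, Cdkn1c and Bmp7 were added after their values were seen. Alternatives covered the pseudocount, the filter, 3 scalings, the trend, the replicate number as a block and each library left out.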

Additional observations from a re-analysis of the deposited data

How the results depend on the processing

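The count of all genes past the adjusted threshold, 9, was 1 under 6 settings (no trend, quantile or median-ratio scaling, pseudocount 0.1, genes of mean FPKM 5 or more, all genes unfiltered), 10 with TPM scaling, and 0 to 3271 with each library left out, the highest without knockout replicate 3. The 0 arose without floxed replicate 2 or floxed replicate 3, where limma gave 2298 and 2146 genes an unadjusted p under 0.05. No member passed in any of these but the fit without knockout replicate 3. The count of podocyte genes lower at an unadjusted p, 11, was 7 of 20 tested among genes of mean FPKM 5 or more and 6 to 12 with each library left out, the 6 without floxed replicate 3. Podocyte genes higher numbered 0 to 1 with each library left out. Median-ratio and quantile scaling gave 8 lower, and their member medians were -0.28 and -0.31 and those of all genes 0.02 and -0.01, against -0.41 and -0.12 as reported. They also raised the share of higher genes among those at an unadjusted p under 0.05 to 54.3% and 50.5%, against 34.0%. The log2 fold change of Tmem151b ran from -0.39 to 0.01 with each library left out, reversed at 0.01 without knockout replicate 1. The cause of these shifts was not tested. Same-numbered libraries did not deviate together (correlations over genes of -0.126, -0.0699 and 0.034). With 3 libraries per group this cannot exclude a pairing, and no label states one. With the replicate block 2 genes passed, and 10 podocyte genes were lower at an unadjusted p. FPKM without read totals limits what can be said of Trpc6, Crb2 and Lmx1b.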

Other observations

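Among all tested genes, those with the narrowest span of the ratio to Nphs1 over the 6 libraries were Inka1 at 1.28-fold, Cit at 1.32-fold, Myom2 at 1.34-fold and Rab3b at 1.36-fold, followed by the members Cdkn1c, Ddn and Podxl. Their mean levels were 2.60 FPKM for Inka1, 0.995 FPKM for Cit, 4.38 FPKM for Myom2 and 1.66 FPKM for Rab3b. Tmtc1, Hs3st6, Unc45b and Foxd2 came next with spans of 1.52-fold to 1.59-fold, and then Ptpro at 1.62-fold. These genes were ranked after the values of the members had been seen, over 6 libraries that include both genotypes, and the ranking carries no test.

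Of the 3 collagen IV chains of the mature glomerular basement membrane, which podocytes and some tubule cells make, Col4a3 and Col4a4 had higher means in knockout and Col4a5 a slightly lower one, each with overlapping groups. Col4a5 averaged 9.23 ± 1.41 FPKM in knockout and 9.51 ± 2.33 FPKM in floxed libraries (SD, n = 3 each). For Col4a3 the knockout replicates 1, 2 and 3 held 24.02, 22.89 and 15.29 FPKM, and the floxed replicates 17.09, 15.36 and 21.19 FPKM. For Col4a4 these were 24.36, 28.63 and 16.89 FPKM in knockout and 21.17, 17.25 and 20.59 FPKM in floxed libraries. These genes were picked after their values were seen.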
